A study of Homo sapiens with 10 samples.

Results

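The 6 genes described here belong to the imprinted Prader-Willi region of chromosome 15q11-q13 and were followed across all 10 RNA-seq libraries: SNRPN, SNHG14, UBE3A, NDN, MAGEL2 and MKRN3. They were taken by name, as imprinted genes around the SNORD116 repeats that ZNF274 is known to occupy, and all 6 were found among the 24050 genes listed in the count tables (22750 for HEK293T cells, 20965 for neural progenitor cells). The libraries came from HEK293T cells, a human embryonic kidney line, with 3 wild-type (WT) and 3 ZNF274 knockout (KO) libraries, and from neural progenitor cells (NPCs) grown through embryoid bodies from H1 human embryonic stem cells, with 2 WT and 2 KO libraries. In the KO cells ZNF274, a KRAB zinc finger gene, was deleted homozygously with Cas9 and a guide on each side of the gene. KO cells were then expanded from sorted HEK293T cells or picked stem cell colonies. The series describes the replicates as independent clones without tying a library to a clone, so the p-values given here measure only the spread between these libraries.

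In imprinted regions the copy from one parent is silenced by marks laid down in the germ line. In 15q11-q13 the maternal copies of SNRPN, SNHG14, NDN, MAGEL2 and MKRN3 are silent, under the control of an imprinting centre at the SNRPN start, and loss of the paternal copies causes Prader-Willi syndrome. SNHG14 is a very long noncoding RNA that starts from the SNRPN side, carries the SNORD116 and SNORD115 small nucleolar RNAs in its introns and, in neurons, runs antisense over UBE3A and silences the paternal UBE3A copy. The maternal copy of UBE3A encodes a ubiquitin ligase whose loss causes Angelman syndrome. ZNF274 recruits the H3K9 methyltransferase SETDB1 through TRIM28, and at this region its known sites lie in the SNORD116 repeats. The counts do not separate the parental copies.

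ZNF274 itself was read first, as a check of the labels. It lay at 14.7, 14.6 and 16.6 CPM (read counts scaled to a common library total, with TMM factors over all 10 libraries) in WT HEK293T cells and at 23.3 and 25.4 CPM in WT NPCs. No KO library held a single ZNF274 count. Total gene counts ran from 18621266 to 32285876 per library, so 3 counts, taken as the floor below which a level was not read, correspond to 0.0916 to 0.154 CPM. The floor and the intervals on counts cover counting error only. In bulk RNA, fewer cells of a type and less RNA per cell cannot be told apart.

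The NPC groups also differed in cell type markers. Of all genes tested between KO and WT NPCs, 8.36% passed as lower and 8.45% as higher. In KO NPCs 10 of 14 neural progenitor markers passed the test as lower and 0 as higher, with SOX2, a transcription factor of neural stem cells, at 228 and 219 CPM in WT and 12.8 and 21.5 CPM in KO libraries, and SOX1, another such factor, at 7.32 and 50.6 CPM in WT and 0.0497 and 0.0917 CPM, under the floor, in KO libraries. Vimentin and nestin did not pass, and because these abundant genes carry most of the summed progenitor signal, that sum stayed at 9850 to 10100 CPM in WT and 9830 to 10400 CPM in KO libraries. Of 10 neuron markers 4 were lower and 1 higher (summed level, most of it MAP2, 1090 to 1180 CPM in WT and 178 to 222 CPM in KO), and of 12 mesenchymal markers 7 were higher and 0 lower (2350 to 2980 CPM in WT, 8810 to 9590 CPM in KO). In KO libraries most of the mesenchymal sum is COL1A1 and TAGLN. Mesenchymal markers that did not pass include COL1A2 (0.07 on the log2 scale) and ACTA2 (-0.19). Of 4 pluripotency markers tested, 1 was higher and 1 lower (140 to 161 CPM summed in WT, 66.3 to 70.9 CPM in KO). Kidney epithelial markers gave 0 calls of 4 in NPCs, and in HEK293T cells, whose label is an embryonic kidney line, the same markers summed to 0.298 to 0.758 CPM in WT and 0.366 to 1.04 CPM in KO libraries. No marker of any list passed the test between KO and WT HEK293T cells, where 0.489% of all genes did. These marker differences lie beside every KO result in NPCs, and their part in those results was not tested.

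At the starts of SNRPN and NDN, CpG dinucleotides carry the imprinted methylation. These starts are shown because both genes were at 0 in WT HEK293T cells and had KO values below the WT values in NPCs, and the start of UBE3A is shown as that of a member far above the floor in all 10 libraries. The windows span 250 bases before to 50 after the start, read along the gene's strand, from RefSeq on GRCh38.p14, with CG in capitals. They are chr15:24954737-24955036 (plus strand, shared by SNRPN and SNURF), chr15:23687256-23687555 (minus strand, NDN) and chr15:25438975-25439274 (minus strand, UBE3A).
SNRPN: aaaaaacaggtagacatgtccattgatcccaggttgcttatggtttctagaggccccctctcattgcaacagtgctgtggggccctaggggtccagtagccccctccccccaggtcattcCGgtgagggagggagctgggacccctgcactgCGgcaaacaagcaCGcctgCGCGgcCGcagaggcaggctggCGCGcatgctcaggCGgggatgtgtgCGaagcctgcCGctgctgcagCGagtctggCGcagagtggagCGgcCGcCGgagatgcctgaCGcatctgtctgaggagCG
NDN: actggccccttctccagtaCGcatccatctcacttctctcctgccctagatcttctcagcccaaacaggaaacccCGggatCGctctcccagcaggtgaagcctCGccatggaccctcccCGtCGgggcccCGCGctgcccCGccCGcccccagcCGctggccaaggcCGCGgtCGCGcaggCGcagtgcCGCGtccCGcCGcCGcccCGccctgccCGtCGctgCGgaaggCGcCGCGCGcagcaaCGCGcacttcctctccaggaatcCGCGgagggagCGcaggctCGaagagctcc
UBE3A: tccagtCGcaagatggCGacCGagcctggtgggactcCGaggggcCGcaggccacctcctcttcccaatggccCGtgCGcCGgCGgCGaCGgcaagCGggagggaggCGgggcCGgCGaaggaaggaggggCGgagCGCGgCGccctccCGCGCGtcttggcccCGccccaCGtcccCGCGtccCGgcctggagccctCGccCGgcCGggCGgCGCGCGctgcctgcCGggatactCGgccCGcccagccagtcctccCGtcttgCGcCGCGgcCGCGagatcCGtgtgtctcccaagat
The SNRPN window shown held 18 CG, the NDN window 35 and the UBE3A window 44. SNRPN has 4 start windows in the table, of which the 3 not shown held 7, 2 and 11 CG, and UBE3A has 3, of which the others held 38 and 39, so that for both genes the start shown has the most CG. Among 35116 RefSeq start windows of the same length, 44.5% held at least as many CG as SNRPN, 14.1% at least as many as NDN and 4.19% at least as many as UBE3A, the median was 14, and 96.0% held at least 1. CG reads the same on both strands. MKRN3 had 15 CG and MAGEL2 and SNHG14 had 9 each, and all 6 members were matched in the table.

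The SNORD116 copies are the ZNF274-bound elements of the region and also short and near-identical. Copies 1, 2 and 24 are shown because they were the ones listed for NPCs, read from hg19 on the plus strand, with the C box TGATGA and every CTGA, the letters of the D box, in capitals. They lie at chr15:25296624-25296718, chr15:25299357-25299451 and chr15:25339184-25339275, in the introns of SNHG14.
SNORD116-1: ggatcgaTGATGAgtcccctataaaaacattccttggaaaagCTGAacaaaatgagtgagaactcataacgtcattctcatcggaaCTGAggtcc
SNORD116-2: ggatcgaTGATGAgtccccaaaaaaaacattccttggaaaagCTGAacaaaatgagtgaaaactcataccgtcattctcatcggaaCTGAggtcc
SNORD116-24: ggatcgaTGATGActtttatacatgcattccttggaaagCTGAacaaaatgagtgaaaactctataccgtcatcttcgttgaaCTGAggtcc
Copies 1 and 2 were identical at 95.8% of positions and each matched copy 24 at 85.3%. Of 25 annotated copies, 19 had at least 1 other copy at 90% identity or more, 24 held TGATGA and 25 held CTGA on the transcribed strand. The copies are 83 to 102 bases long, the libraries were made from mRNA, and the counts keep only reads with a single place in the genome. The 16 copies listed for HEK293T cells held 2 counts in all 6 libraries together. In NPCs the 3 listed copies summed to 6 and 5 counts in WT and to 6 and 9 counts in KO libraries, and no copy passed the test. The copies went different ways within that sum. SNORD116-1 held 3 and 5 counts in WT and 0 and 1 in KO. SNORD116-2 held 0 and 0 in WT and 4 and 3 in KO, and SNORD116-24 held 3 and 0 in WT and 2 and 5 in KO. No SNORD115 copy was listed in either table.

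The levels of the 6 genes split by cell type. SNRPN, SNHG14 and NDN were at or under the floor in every HEK293T library and between 5.59 and 160 CPM in every NPC library. SNRPN (ENSG00000128739, chr15:25068784-25223870 in hg19, plus strand) encodes SmN, a tissue-restricted version of the Sm B protein of the spliceosome. It had 0 counts in all 6 HEK293T libraries. In WT NPCs it reached 13.4 CPM in library S3 and 22.0 CPM in library S5, from 282 and 429 counts. SNRPN was at least 175-fold higher in WT NPCs than in WT HEK293T cells, against the floor of 3 counts per library. In KO cells the same bound was 63.3-fold.

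SNHG14 (ENSG00000224078, chr15:25223730-25665483, plus strand) had 1, 0 and 1 counts in WT HEK293T libraries and 0, 0 and 3 in KO. In WT NPCs it had 1205 and 1627 counts, or 57.2 and 83.3 CPM. The ratio of summed levels between WT NPCs and WT HEK293T cells was 3100 (95% counting interval 857 to 25600). Between KO NPCs and KO HEK293T cells it was 1350 (460 to 6540).

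NDN (ENSG00000182636, chr15:23930547-23932452, minus strand, a single exon) encodes necdin, a MAGE family protein that restrains proliferation and protects postmitotic neurons. It had no count in WT HEK293T libraries and 0, 0 and 1 in KO. In WT NPCs it stood at 160 CPM in S3 and 107 CPM in S5. NDN was at least 1320-fold higher in WT NPCs than in WT HEK293T cells. The WT contrast of cell types called SNRPN (edgeR adjusted p = 1.87e-06), SNHG14 (5e-09) and NDN (4.08e-09) higher in NPCs, 3 of the 6 genes, while 25.2% of 19255 genes were called higher in this contrast and 40.7% in either direction.

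UBE3A (ENSG00000114062, chr15:25578875-25684198, minus strand) was well above the floor in every library. Its values were 99.2, 121 and 110 CPM in WT and 102, 120 and 111 CPM in KO HEK293T libraries, and 179 and 182 CPM in WT and 204 and 202 CPM in KO NPC libraries. All NPC libraries lay above all HEK293T libraries. Such a gap is common, since 72.5% of 19255 genes did not overlap between the WT groups of the 2 cell types. The WT difference was 0.71 on the log2 scale (SE 0.127, 95% confidence interval 0.44 to 0.99, edgeR adjusted p = 0.000412), under the 2-fold threshold that a call also required.

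MKRN3 (ENSG00000179455, chr15:23810821-23875222, plus strand), a makorin ubiquitin ligase that holds back the onset of puberty, ran the other way. It had 3.15, 3.17 and 3.04 CPM in WT and 4.03, 2.38 and 3.12 CPM in KO HEK293T libraries. In NPCs it had 1.52 and 1.74 CPM in WT and 0.796 and 1.10 CPM in KO libraries, from 16 to 34 counts each. All NPC values lay below all HEK293T values. Between the WT groups alone, 72.5% of 19255 genes did not overlap, 33.2% with NPCs lower. The WT difference was -0.93 (SE 0.346, interval -1.69 to -0.18, edgeR adjusted p = 0.0355), again short of a 2-fold change. UBE3A and MKRN3 thus join SNRPN, SNHG14 and NDN among the 5 of 6 genes with an adjusted p under 0.05 at any fold, as had 56.8% of all genes. For MKRN3 this p rose to 0.05 or more under 7 of 19 alternatives, with a range of 0.0251 to 0.149. These were the scales by DESeq2 size factors (0.0517) and by library size alone (0.0602), and each fit without 1 WT library, at 0.0635 to 0.0673 for those of HEK293T cells, 0.149 for NPC library S3 and 0.0833 for S5.

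MAGEL2 (ENSG00000254585, chr15:23888696-23893014, minus strand, a single exon) encodes a MAGE protein that joins TRIM27 and USP7 in the MUST complex on endosomes. It was barely detected. HEK293T libraries held at most 2 counts each, while NPC libraries held 7 and 2 in WT and 7 and 9 in KO. The WT ratio of NPCs to HEK293T cells was 6.57 with a counting interval of 1.64 to 37.7 (edgeR adjusted p = 0.0638). The fitted difference passed the thresholds with voom (2.37 on the log2 scale, adjusted p = 0.0314) and without WT NPC library S5 (3.13, adjusted p = 0.0475), in a range of adjusted p from 0.0314 to 0.455 over all alternatives. The cell types were counted in separate tables, so that cell type and table cannot be told apart in any of these contrasts.

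**Figure D1:**
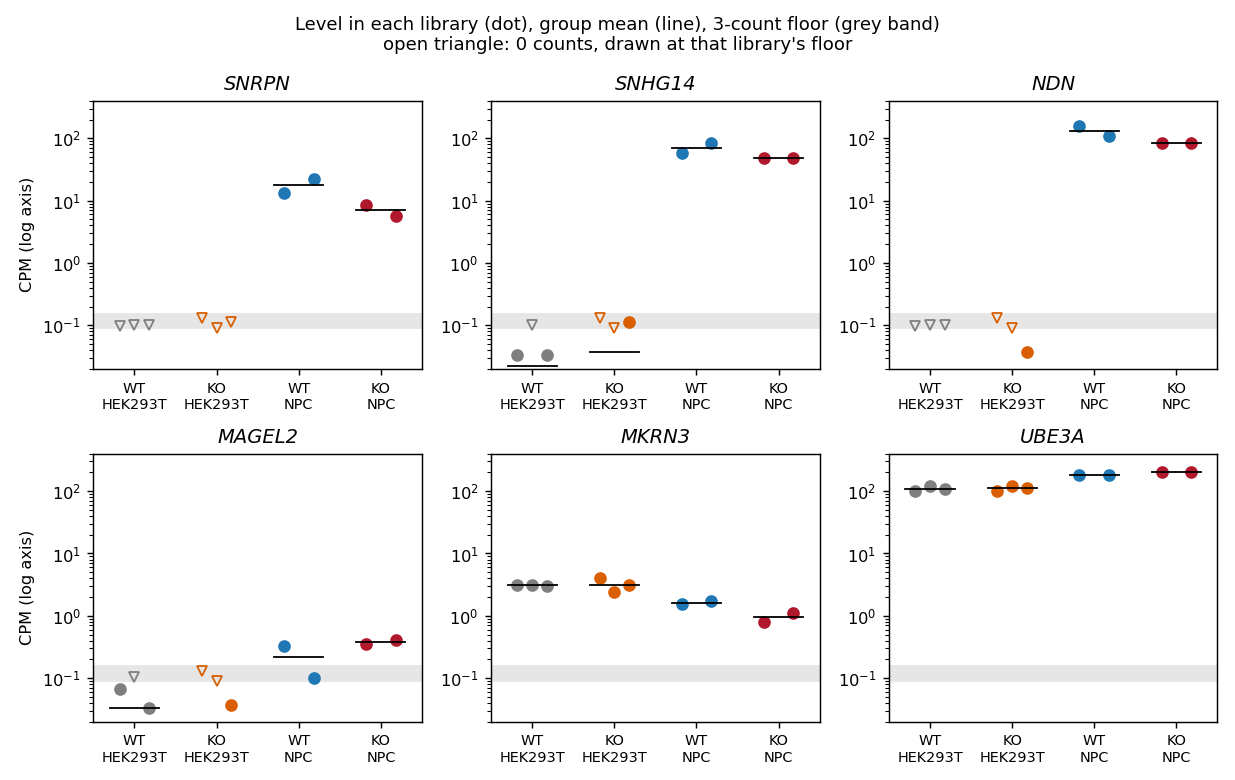
CPM of each gene on a log axis in the 4 groups, with 1 dot per library, a line at the group mean and a grey band over the 3-count floors of 0.0916 to 0.154 CPM; open triangles are libraries with 0 counts, drawn at their own floor. SNRPN, SNHG14 and NDN sit at or under the floor in HEK293T cells and at 5.59 to 160 CPM in NPCs, UBE3A lies between 99.2 and 204 CPM throughout, and MKRN3 is lower in NPCs (0.796 to 1.74 CPM) than in HEK293T cells (2.38 to 4.03 CPM).

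Per kilobase of longest annotated transcript, the order of levels in WT NPCs was NDN (69.8 ± 19.4 CPM per kb, SD, n = 2), UBE3A (19.4 ± 0.218), SNRPN (9.12 ± 3.12), SNHG14 (2.91 ± 0.763), MKRN3 (0.595 ± 0.0569) and MAGEL2 (0.0502 ± 0.0377). KO NPCs kept that order, with NDN at 44.4 ± 0.386, UBE3A at 21.7 ± 0.109, SNRPN at 3.62 ± 1.04, SNHG14 at 2.02 ± 0.0167, MKRN3 at 0.346 ± 0.0788 and MAGEL2 at 0.0880 ± 0.0106 CPM per kb. Neighbours in either order were further apart than the sum of their SDs. In WT HEK293T cells only UBE3A (11.8 ± 1.15 CPM per kb, n = 3) and MKRN3 (1.14 ± 0.0258) stood above the floor, and in KO HEK293T cells they were at 11.9 ± 0.951 and 1.16 ± 0.302. With the union of all annotated exons as length, SNHG14 in WT NPCs fell to 0.573 and SNRPN to 5.19 CPM per kb, and the order in WT NPCs was the same.

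In HEK293T cells no gene of the region that could be tested was called between KO and WT. The tables left 2 of the 6 genes to test, since SNRPN, SNHG14, NDN and MAGEL2 had fewer than 6 counts in all. UBE3A differed by 0.02 on the log2 scale (SE 0.137, 95% confidence interval -0.28 to 0.32, edgeR adjusted p = 0.981) and MKRN3 by 0.03 (SE 0.284, interval -0.60 to 0.65, adjusted p = 0.989), and the sign of both changed when 1 library was left out. KO and WT libraries overlapped for both, as they did for all but 12.6% of the genes tested. The count of calls was 0 of 2, with 0 also at an unadjusted p under 0.05 (7.12% of all genes) and 0 by DESeq2 and by voom, and 0.489% of 19018 genes were called in this contrast. The intervals leave out a change of UBE3A or MKRN3 by the 2-fold that a call required. For SNRPN, SNHG14 and NDN the KO libraries held 0, 3 and 1 counts, so a gain above 0.0916 to 0.13 CPM per library was not seen in the absence of ZNF274.

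In NPCs the KO libraries were lower than the WT libraries for 4 of the 6 genes (SNRPN, SNHG14, NDN and MKRN3) and higher for 2 (UBE3A and MAGEL2), without overlap in CPM for any of them. For MAGEL2 the gap is only that between 0.333 CPM in WT S3 and 0.348 CPM in KO S1, with 7 counts in each. Of all 20577 genes tested, 67.0% did not overlap, 33.2% with KO lower, in this contrast of 2 against 2. SNRPN alone was called, 1 of 6 genes where 16.8% of all genes were called and 8.36% as lower. SNRPN stood at 13.4 and 22.0 CPM in WT and at 8.45 and 5.59 CPM in KO libraries, a mean of 17.7 ± 6.06 (SD, n = 2) against 7.02 ± 2.02. It fell by 1.35 on the log2 scale (SE 0.319, interval -2.10 to -0.59, edgeR adjusted p = 0.0196). Without WT library S5 the difference was -0.95 (adjusted p = 0.00134) and under the 2-fold threshold, and without KO library S2 it was -1.08 with an adjusted p of 0.122, so that the call rests on both of these libraries. Over all alternatives the difference ran from -1.68 to -0.95 and the adjusted p from 1.05e-11 to 0.122, the smallest with a lone WT library taken to vary like the KO pair.

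NDN had 160 and 107 CPM in WT and 85.1 and 84.1 CPM in KO NPCs. The difference was -0.67 (SE 0.183, interval -1.11 to -0.24, edgeR adjusted p = 0.0328), below 2-fold, and the WT libraries were further apart from each other than the lower of them was from the KO libraries. Without WT library S3 it was -0.36 and without S5 -0.94, and without KO library S1 or S2 the adjusted p rose to 0.153 and 0.151. SNHG14 had 57.2 and 83.3 CPM in WT and 48.5 and 49.1 CPM in KO, a difference of -0.54 (SE 0.184, interval -0.97 to -0.11, adjusted p = 0.0674). This did not pass the adjusted threshold, though its unadjusted p was 0.0215. The SNHG14 difference passed that threshold, below 2-fold, with library size alone as the scale (-0.65, adjusted p = 0.0395) and without WT library S3 (-0.79, adjusted p = 1.58e-08, with a lone WT library taken to vary like the KO pair). Without WT library S5 it was -0.25 (adjusted p = 0.147), and over all alternatives the adjusted p ran from 1.58e-08 to 0.245. There were 4.27 and 3.79 SNHG14 counts per SNRPN count in WT and 5.74 and 8.78 in KO libraries. The ratios follow from the values above and were not tested.

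UBE3A, the transcript opposite SNHG14, was at 179 and 182 CPM in WT and 204 and 202 CPM in KO NPCs, a difference of 0.15 (SE 0.098, interval -0.08 to 0.39, edgeR adjusted p = 0.282). For each SNHG14 count there were 3.13 and 2.18 UBE3A counts in WT and 4.20 and 4.12 in KO libraries, a ratio that was not tested. MKRN3 differed by -0.79 (SE 0.454, interval -1.86 to 0.28, adjusted p = 0.238) on 32 and 34 against 16 and 24 counts. MAGEL2 differed by 0.76 with an interval of -1.38 to 2.91 (adjusted p = 0.579), which its 2 to 9 counts per library do not narrow. A change of MKRN3 or MAGEL2 by 2-fold lies within these intervals, whereas for UBE3A it does not.

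**Figure D2:**
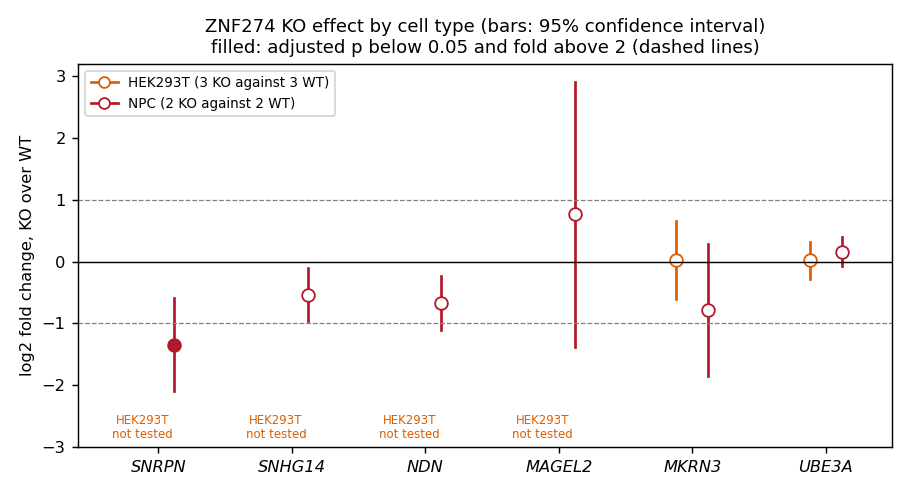
log2 fold change of KO over WT for each gene in HEK293T cells (orange, 3 against 3) and NPCs (red, 2 against 2), with bars for the 95% confidence interval and dashed lines at a 2-fold change; filled points passed an adjusted p of 0.05 and the 2-fold threshold. Only SNRPN in NPCs (-1.35) is filled, and 4 genes could not be tested in HEK293T cells.

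The difference between the KO effects in NPCs and HEK293T cells was tested for the genes above the floor in both. For UBE3A it was 0.15 (SE 0.182, interval -0.24 to 0.55, edgeR adjusted p = 0.643; -0.06 with library size alone as the scale) and for MKRN3 -0.80 (SE 0.492, interval -1.87 to 0.27, adjusted p = 0.313). Neither was called, where 12.2% of 19255 genes were. Whether the lower SNRPN of KO NPCs is particular to NPCs could not be tested, since HEK293T cells held no SNRPN count in either genotype.

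Along the region, GABRG3 and OCA2 were called lower in KO NPCs, a share of the neighbours tested that lies near that of genes in general. Of 39 neighbouring symbols looked for (other genes, noncoding RNAs and small nucleolar RNAs from NIPA2 to HERC2), 29 were listed, 15 of them could be tested in NPCs, and 2 were called lower and 0 higher, where 8.36% of all genes tested in NPCs were called lower and 16.8% either way. GABRG3, a subunit gene of the GABA-A receptor that lies beyond UBE3A, had 1.52 and 1.23 CPM in WT and 0.0995 and 0.275 CPM in KO (-2.84, SE 0.675, edgeR adjusted p = 0.0199). The KO values come from 2 counts, under the floor, in S1 and from 6 in S2, so the size of this difference is poorly set. GABRA5, a receptor subunit gene nearer to UBE3A, did not pass (0.11, adjusted p = 0.873). OCA2, a pigment gene, had 4.75 and 2.25 CPM in WT and 1.29 and 0.780 CPM in KO (-1.77, edgeR adjusted p = 0.0393). By voom OCA2 was not called (-1.72, adjusted p = 0.0613), while GABRG3 was. Without KO library S1 or without S2 neither was called, with adjusted p-values of 0.13 and 0.0524 for GABRG3 and 0.101 and 0.204 for OCA2. Without WT library S3 OCA2 was no longer called (-1.14) and PWAR6 was (-1.19). At the other end, NIPA1 and NIPA2, magnesium transporter genes outside the imprinted block, did not pass, nor did HERC2, a ubiquitin ligase that binds UBE3A. Of the neighbours, 4 were tested in HEK293T cells and 0 were called. The difference between the KO effects could be read for these 4 alone (NIPA1, NIPA2, OCA2 and HERC2), and 0 were called. For OCA2 it was -1.64 (SE 0.641, edgeR adjusted p = 0.106), and -1.95 with an adjusted p of 0.0243 when KO library S18 was left out. GABRG3, GABRA5 and the others that entered that fit had no HEK293T count in either genotype, so whether their KO values are particular to NPCs could not be tested.

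Smaller entries on the strand of SNRPN and SNHG14 were read as well. PWAR6, a noncoding RNA inside SNHG14, had 5.46 and 13.2 CPM in WT and 6.12 and 5.59 CPM in KO NPCs (-0.68, SE 0.409, edgeR adjusted p = 0.257). The entries named SNORD64 and SNORD108, near the start of SNHG14, differed by -1.07 (adjusted p = 0.249) and -1.28 (adjusted p = 0.191). SNURF, which shares its start and exons with SNRPN, held 4 and 8 counts in WT and 13 and 0 in KO libraries. With SNURF and SNRPN counts summed the difference was -1.31 (adjusted p = 0.026). None of these entries passed by itself in all libraries, and PWAR6, SNORD64, SNORD108 and SNURF had 0 counts in every HEK293T library. NPAP1, an imprinted gene upstream of SNRPN, had 0 counts in WT NPCs and 5 and 3 in KO NPCs (adjusted p = 0.117).

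**Figure D3:**
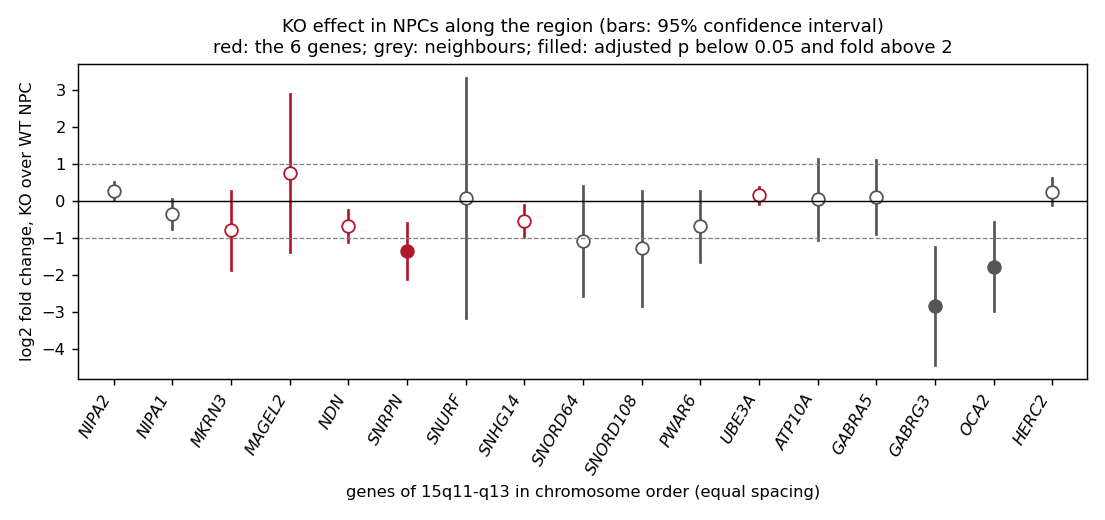
log2 fold change of KO over WT NPCs for 17 genes, in chromosome order with equal spacing. They are those of the 6 genes and the neighbouring symbols looked for that had at least 20 counts over the 4 NPC libraries. Red marks the 6 genes, grey the neighbours, bars the 95% confidence interval, and filled points passed an adjusted p of 0.05 and the 2-fold threshold. SNRPN (-1.35), GABRG3 (-2.84) and OCA2 (-1.77) are filled.

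No partner of these proteins was called in a KO contrast. Of all genes tested, 16.8% were called in NPCs and 0.489% in HEK293T cells. SNRPB encodes the Sm B protein whose place SmN can take. There were 12.6 and 8.30 SNRPB counts per SNRPN count in WT and 14.9 and 23.6 in KO NPCs. SNRPB itself had 169 and 182 CPM in WT and 126 and 132 CPM in KO NPCs (-0.46, SE 0.104, edgeR adjusted p = 0.0162, below 2-fold). In HEK293T cells, without SNRPN, SNRPB had 516 CPM on average in WT and 507 CPM in KO libraries, and it was called lower in WT NPCs than in WT HEK293T cells (-1.55, adjusted p = 7.33e-06). Of the 7 Sm core genes 0 were called in either KO contrast, beside those shares of all genes. The median log2 difference of the Sm core genes was -0.10 in NPCs and -0.21 in HEK293T cells, against medians over all genes of -0.022 and 0.011. Of 14 genes of MAGE relatives and of the MUST complex with its retromer and WASH partners, and of 8 makorin and UBE3A-related genes, 0 were called in either KO contrast, with medians of 0.14 and 0.18 in NPCs.

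The machinery that works with ZNF274 was read in the same libraries. Apart from ZNF274, 12 genes of H3K9 methylation and imprint upkeep were tested in NPCs and 0 were called, where 16.8% of all genes were. Of these 12 genes, 6 were lower with an adjusted p under 0.05, while 28.6% of all genes had such a p at any fold and in either direction. They were SETDB1, ATF7IP, TRIM28, EHMT2, CBX1 and CBX5. SETDB1, the H3K9 methyltransferase recruited by TRIM28, had 81.0 and 72.7 CPM in WT and 49.6 and 51.8 CPM in KO NPCs (-0.61, SE 0.118, edgeR adjusted p = 0.00876). TRIM28 had 681 and 753 CPM in WT and 450 and 497 CPM in KO (-0.61, adjusted p = 0.00619). EHMT2, the methyltransferase G9a, showed the largest of these differences (-0.91, adjusted p = 0.0011). ZNF445 and SMCHD1, which guard imprints, gave -0.11 and -0.17 with adjusted p-values of 0.667 and 0.313. ZFP57, of the same list, went the other way without passing (1.66, edgeR adjusted p = 0.301), on 1 and 3 counts in WT and 5 and 9 in KO NPCs. In HEK293T cells 11 of these genes were tested and 0 were called, where 0.489% of all genes were. TRIM28 alone of these 11 had an unadjusted p under 0.05 there, with 1020, 814 and 988 CPM in WT and 310, 351 and 842 CPM in KO libraries. Its KO and WT libraries overlapped, and the difference of -0.90 (SE 0.311, edgeR unadjusted p = 0.0145, adjusted p = 0.537) did not pass the adjusted threshold.

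Neuron and mesenchymal markers were set beside the SNRPN and NDN values because their sums differed between the genotypes, where 67.0% of all genes did not overlap. The neural progenitor sum did not differ so (9850 to 10100 CPM in WT, 9830 to 10400 CPM in KO). Within the lists shown, 1 neuron marker was called higher, and COL1A2 and ACTA2 did not pass. Between the WT libraries NDN ran against the neuron sum, at 160 CPM in S3 and 107 CPM in S5. The neuron markers summed to 1090 to 1180 CPM where SNRPN was at 13.4 to 22.0 CPM and to 178 to 222 CPM where it was at 5.59 to 8.45 CPM. Most of that sum is MAP2, a dendritic microtubule protein, which had 996 and 1090 CPM in WT and 167 and 131 CPM in KO libraries. The other 9 markers together had 92.3 and 89.0 CPM in WT and 54.6 and 46.6 CPM in KO libraries. Most of the mesenchymal sum in KO libraries is COL1A1, a fibrillar collagen, and TAGLN. COL1A1 had 646 and 558 CPM in WT and 3480 and 3570 CPM in KO libraries. TAGLN had 817 and 1070 CPM in WT and 3530 and 3560 CPM in KO libraries. UBE3A, in the same libraries, stayed within 179 to 204 CPM.

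**Figure D4:**
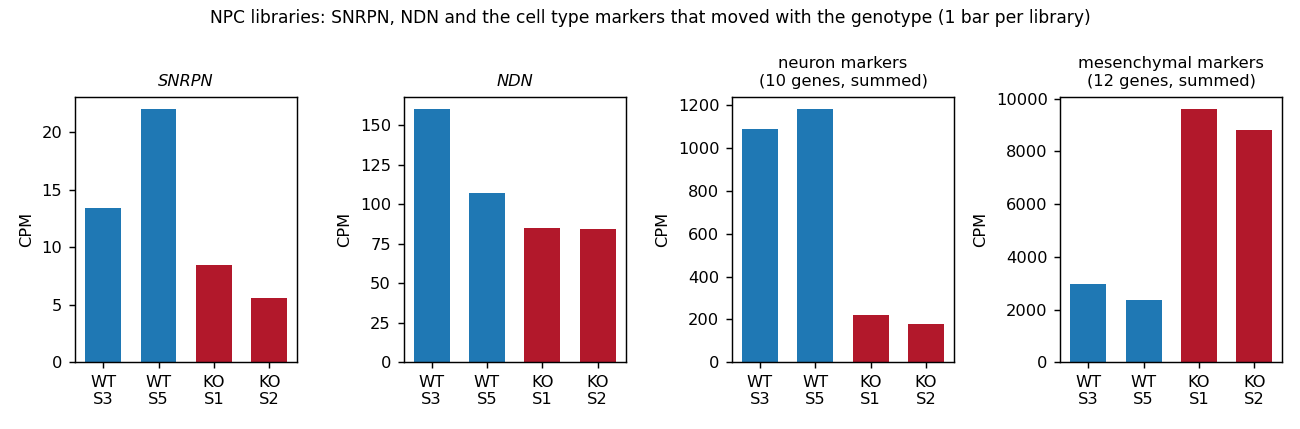
CPM of SNRPN and NDN and the summed CPM of 10 neuron and 12 mesenchymal markers in the 4 NPC libraries, 1 bar each from 0, WT in blue and KO in red. SNRPN is at 13.4 and 22.0 CPM in WT and 8.45 and 5.59 CPM in KO libraries. The neuron sum, most of it MAP2, is 1090 to 1180 CPM in WT and 178 to 222 CPM in KO. The mesenchymal sum, in KO mostly COL1A1 and TAGLN, is 2350 to 2980 CPM in WT and 8810 to 9590 CPM in KO. These lists are shown because their sums differed between the genotypes, and the neural progenitor sum, which did not, is not drawn.

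Genes whose pattern over the 10 libraries came closest to each member were found by the root mean square difference of centred log2 CPM, among 13949 genes with a mean of at least 1 CPM (13950 for MAGEL2). This likeness is a description, and for members near 0 in HEK293T cells it is set mostly by the contrast of cell types. TAFA5 (0.272) and MCHR1 (0.274) were nearest to SNRPN, NNAT (0.311), itself an imprinted gene, and CTSZ (0.339) to SNHG14, and SOX11 (0.376) was near to NDN. GMFB (0.0560) and CASK (0.0593) were nearest to UBE3A, PIM3 (0.114) and TMEM250 (0.138) to MKRN3, and VASP (0.329) and ANXA6 (0.340) to MAGEL2. None of the genes named here lies on chromosome 15.

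Several members share sequence with other transcripts, which touches their counts. In the annotation 43.9% of the exon bases of SNRPN lie in exons of other genes on the same strand, SNURF among them (28.0% counting only genes listed in the tables), and such reads can be left unassigned. For MAGEL2 that share was 52.9%, the highest of the 6, though no gene listed in the tables covers it, and for SNHG14 it was 12.9% (6.6% for listed genes). On the opposite strand, exons of other genes cover 9.6% of UBE3A and 25.2% of MKRN3, with the same shares for listed genes alone. The kit keeps strand, but the strand setting of the counting is not given in the sources used here. So reads of UBE3A and SNHG14, and of MKRN3 and its antisense RNA, were not shown to be separate over those bases. NDN shares no exon base with another gene.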

How the data were processed

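RNA-seq was carried out on 3 WT and 3 ZNF274 KO HEK293T libraries and on 2 WT and 2 KO NPC libraries, prepared with a stranded mRNA kit. The authors aligned reads to hg19 (hisat2) and deposited counts per gene, made with featureCounts from reads with a unique position against an annotation that also held transposable elements. Versions and annotation release are not given in the sources used here. Genes with a total count under the number of libraries (6 for HEK293T, 4 for NPCs, 10 for both) were dropped. KO and WT were compared in each cell type with the quasi-likelihood test of edgeR 4.0.16 (TMM, R 4.3.3). Cell types and the difference between KO effects were compared in a joint fit of the genes in both tables. These fits were run on simulated data beforehand. That simulation set no gene silent in HEK293T cells alone, so it does not cover SNRPN, SNHG14 and NDN in the joint fit. A gene was called at a Benjamini-Hochberg adjusted p below 0.05 over all genes and a fold above 2. Confidence intervals are at 95%. The genes named are the 6 genes, ZNF274, the called or better counted members of lists for the region, the partners, the machinery and cell types, and the 2 genes nearest in pattern to each of the 6. GABRA5, NIPA1, NIPA2, HERC2, PWAR6, SNURF, NPAP1 and uncalled machinery genes were picked for their place or role after their values were seen. The 6 genes and the lists were chosen with earlier results of these data known. Some genes that these rules name are not reported here and are left out of the counts over the region. Exon lengths came from GENCODE v44 lifted to hg19. Replicates differed beyond sampling noise in every pair. DESeq2 1.42.0, limma 3.58.1 (voom), other scalings, filters and thresholds, and leaving out each library were the alternatives.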

Additional observations from a re-analysis of the deposited data

How the results depend on the processing

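The number of the 6 genes called in KO NPCs was 1, and it became 2 (SNRPN and NDN) with no fold threshold and 0 at an adjusted p below 0.01, with 0 to 1 when a library was left out (0 without WT S5 or without KO S2). The number of neighbours called in KO NPCs was 2, with 1 by voom, 0 at an adjusted p below 0.01 and 0 to 2 when a library was left out (0 without KO S1 or KO S2). Of the 4 neighbours with HEK293T counts to set a difference between KO effects, 0 were called, and 0 to 1 when a library was left out (OCA2 without KO S18). The number of the 6 genes called between WT cell types was 3, and 5 with no fold threshold. In HEK293T cells MKRN3 went from 0.03 to -0.03 with voom and to between -0.18 and 0.21 when a library was left out. UBE3A went from 0.02 to between -0.04 and 0.09 when a library was left out, and to 0.11 with library size alone as the scale. The difference between the KO effects on UBE3A went from 0.15 to -0.06 with library size alone as the scale. That scale moved the median of all genes in this comparison from -0.03 to -0.24, and in KO NPCs from -0.02 to -0.13. The cause of the other changes was not tested. The 4 genes called between WT cell types with voom and without WT S5 were these 3 and MAGEL2. Of 270 log2 differences under the alternatives, 257 kept their direction and side of the threshold. Settings that changed only a threshold kept the main fit, so no direction could change there. With 1 library left in an NPC arm, that library is assumed to vary like the other groups. MAGEL2 gave no value in NPCs under the stricter filter. No paired analysis was possible because the libraries carry numbers that no 2 groups share. At this depth the counts of MAGEL2, and of MKRN3 in NPCs, leave wide intervals.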

Other observations

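The whole interval was also counted, with the 6 genes and the neighbours reported above included, and some entries not named above are added. In all, 41 reported entries annotated from NIPA2 to HERC2 were listed in either table, 39 of them for HEK293T cells, where 27 had 0 counts in all 6 libraries. In NPCs 27 were listed and tested, of which 3 were called lower (SNRPN, GABRG3 and OCA2) and 0 higher, beside 8.36% called lower and 16.8% called either way among all genes tested. The antisense RNA over MKRN3 (ENSG00000260978) had 2 and 10 counts in WT and 1 and 0 in KO NPCs (edgeR adjusted p = 0.165). RP11-701H24.7, an RNA inside an intron of SNHG14, had 12 and 20 counts in WT and 20 and 19 in KO NPCs and none in HEK293T cells. The noncoding RNA ENSG00000261069, among the SNORD116 copies, had 15 and 23 counts in WT and 11 and 9 in KO NPCs (adjusted p = 0.268) and none in HEK293T cells. The ribosomal protein pseudogene RPL5P1, in the SNRPN locus on the opposite strand, had 58 to 102 counts in HEK293T libraries, where SNRPN had none.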
